A study of Mus musculus with 10 samples.

Results

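The genes described here are the Wnt ligands, the receptors that bind them, the secreted proteins that block them, and 3 nuclear or feedback genes (Axin2, Lef1 and Tcf7) of the mouse. They were picked by gene name from the array's own annotation. No measured value entered the rule, but it was chosen with earlier results of these data known. The array carried 48 of these genes among 35527 gene names. They comprised 19 Wnt ligands, 10 Frizzled receptors, and 5 co-receptors and other Wnt receptors (Lrp5, Lrp6, Ror1, Ror2 and Ryk). The rest were 11 genes grouped as secreted antagonists (the Sfrp and Dkk families, Dkkl1, Frzb and Wif1) and the 3 nuclear or feedback genes. That grouping follows gene names and does not show that each member blocks Wnts.

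Their transcripts were measured in infrarenal aorta of male C57BL/6J mice on a normal diet, operated on at 10 weeks of age and harvested 7 days later. In 5 PPE mice the closed-off aortic segment was filled for 5 min at 100 mmHg with saline that held porcine pancreatic elastase (PPE) at 1.5 U/mL, an enzyme that degrades elastin and gives rise to an aneurysm. In 5 sham mice the same operation was done with saline alone, so both groups had the aortotomy and the pressure. RNA of each aorta was hybridised unpooled, in red (Cy5), to a 2-colour array of its own against a commercial universal mouse reference RNA in green (Cy3). The whole wall segment was harvested, with every cell type in it, and 1 time point was arrayed.

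Wnt proteins are lipid-modified, secreted signals that act mostly on nearby cells. In the beta-catenin route a Wnt bridges a Frizzled receptor and Lrp5 or Lrp6, beta-catenin escapes destruction, and in the nucleus it works with Lef1 and Tcf family proteins. Other routes, through Ror2, Ryk or Frizzled alone, act on cell polarity, movement and calcium. Secreted antagonists stop these signals outside the cell: Sfrp proteins, Frzb and Wif1 bind Wnts, and Dkk1 acts on the Lrp co-receptors. In blood vessels Wnt signals are known for roles in endothelial growth and in the growth and movement of smooth muscle cells.

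The promoters of these genes were searched for the letters that Tcf and Lef proteins bind and for the AP-1 site, a common element of stimulus-responsive genes, to show whether genes that moved together share such letters. The sequences are RefSeq's (build GRCm38.p6), from 250 bases before to 50 bases after each annotated start, and 34 of the 48 genes had at least 1 (41 promoters). On both strands, CTTTGAT stood in 3.73% of all 32851 promoters and in those of 2 of these genes, CTTTGAA in 5.14% and in 1, and TGACTCA in 5.2% and in 2. The 30 bases around each match follow, written 5′ to 3′ on the gene's strand with the match in capitals, and the last 3 hold the Tcf/Lef letters.
Ror2 (chr13:53286196-53286225, minus strand): gtcgctgccctTGAGTCActccggcagagg
Wnt5b, first start (chr6:119544520-119544549, minus strand): tcaccaaaaggTGAGTCAcgcgtccgcgct
Wnt11 (chr7:98835050-98835079, plus strand): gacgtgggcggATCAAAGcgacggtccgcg
Wnt5b, second start (chr6:119449439-119449468, minus strand): agtaagtctctCTTTGATctgctccctgtc
Dkk1 (chr19:30549595-30549624, minus strand): tcctcccaaagCTTTGAAatcccatcccgg
TGAGTCA and ATCAAAG are TGACTCA and CTTTGAT read on the other strand. Wnt5b had 3 promoters searched, and its first and second start are labels for those that held a match. Of the 9 genes that differed between the groups, 5 had a promoter in the table (Fzd7, Ror2, Tcf7, Wif1 and Wnt16). Ror2 held the AP-1 letters and none of the 5 held either Tcf/Lef form. A match is a description of letters and not a binding site, and a missing match concerns this window alone.

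Values are log2 ratios of aorta over reference, so a difference of 1 between PPE and sham is a 2-fold difference. A gene was tested where its brightest probe was well above background in red on at least 5 of the 10 arrays. Between 37.6% and 65.8% of spots per array met that mark, with the lowest shares on sham 5 and PPE 5. Of the 48 genes, 38 were tested, 26 of them above background on all 10 arrays, and 6 were above background on none. Vessel wall markers were detected: 8 of 9 smooth muscle genes and 8 of 8 endothelial genes were above background on all arrays. So were 9 of 9 fibroblast, 8 of 8 macrophage, 7 of 8 adipocyte and 4 of 6 skeletal muscle genes. Detection alone therefore does not identify the tissue. With 5 arrays a group, precision is set by their number.

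In PPE aorta the antagonist Sfrp1, the receptor Ror2 and the nuclear factor Tcf7 were higher. The antagonist Wif1, the Dickkopf family gene Dkk3, the receptors Fzd7, Fzd8 and Fzd2, and the ligand Wnt16 were lower. These 9 of 38 genes (23.7%) passed an adjusted p under 0.01 in limma, beside 23.8% of all 22520 gene names tested. The 3 that were higher made up 7.89% of the tested genes, beside 13.8% of all names, and the 6 that were lower made up 15.8%, beside 9.96%. The share of Wnt genes called was thus that of the array as a whole. The groups did not overlap in 7 genes of 38, beside 25.5% of all names. The median difference was -0.08 over the 38 genes and 0.02 over all names, and the 29 genes not called lay between -1.21 and 1.09. At an unadjusted p under 0.05 there were 17 of 38, beside 43.6% of all names.

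**Figure D1:**
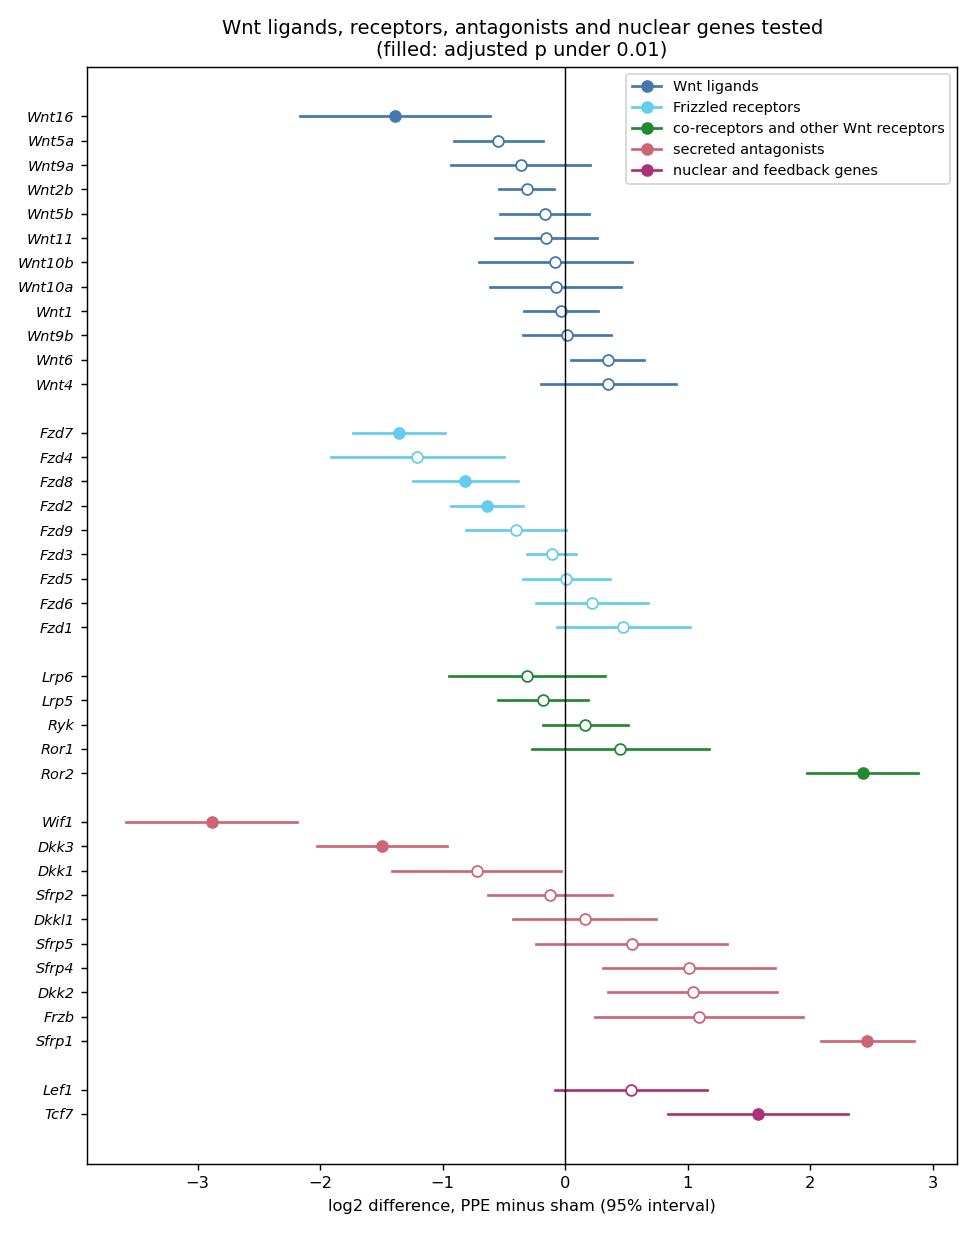
Log2 difference (PPE minus sham) of the 38 tested genes by role, with the 95% interval from limma. Filled points passed an adjusted p under 0.01: Sfrp1, Ror2 and Tcf7 lie to the right of 0, and Wif1, Dkk3, Fzd7, Fzd8, Fzd2 and Wnt16 to the left.

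The choice of normalization mattered most for these counts. Loess was used within each array. With median centring in its place, the median of all gene names moved to 0.41, and Ror2 was the only gene of the 9 that still passed. The differences of Dkk3, Fzd7 and Fzd8 were then -0.75, -0.73 and -0.41, before that shift is taken off. Among all names the share of calls that were higher in PPE went from 58.1% to 98.1%. All 9 passed on Agilent's own log ratios and in the red channel alone, where that share was 50.6% and 49.4%.

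After loess the secreted antagonists held the largest differences of both signs, with the rise of Sfrp1 close to that of Ror2 (2.43). On Agilent's log ratios the rise of Tcf7 was larger than that of Sfrp1. Of the 10 antagonists tested, 1 rose and 2 fell (30% called, beside 23.8% of all names), and their median difference was 0.35. Sfrp1, a soluble decoy with a Frizzled-like domain that binds Wnts, is read by a probe at chr8:24559438-24559497 (build mm9, plus strand). Its log2 ratio was 3.73, 3.45, 3.01, 3.62 and 3.14 in sham 1 to 5 and 6.17, 5.95, 5.77, 5.45 and 5.93 in PPE 1 to 5. Every PPE array lay above every sham array by more than the whole range within either group. The means were 3.39 ± 0.31 and 5.86 ± 0.27 (SD, n = 5 each, as for all group means here), a difference of 2.47 (SE 0.17), or 5.53-fold (limma adjusted p = 1.71e-06). On Agilent's log ratios the difference was 1.22, and in the red channel alone 2.27.

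Wif1, Wnt inhibitory factor, which binds Wnt proteins in the extracellular space, had the largest difference of the 38 genes in either direction (probe at chr10:120537079-120537138, mm9, plus strand). The sham ratios were 4.68, 4.36, 3.08, 4.26 and 3.93. The PPE ratios were 1.42, 2.02, 0.87, 0.95 and 0.64. Sham 3 was the lowest sham array and PPE 2 the highest PPE array, and the groups stayed apart. The mean fell from 4.06 ± 0.61 to 1.18 ± 0.55, a difference of -2.88 (SE 0.32), 7.38-fold lower (limma adjusted p = 3.73e-05). The reference RNA was above background for this probe on 0 of the 10 arrays, and in the red channel alone the difference was -2.77.

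Dkk3, a divergent member of the Dickkopf family (probe at chr7:119259556-119259615, mm9, minus strand), read 4.62, 4.66, 3.96, 4.79 and 4.54 in sham and 2.99, 3.54, 2.88, 2.25 and 3.44 in PPE. Sham 3 was again the lowest sham array and PPE 2 the highest PPE array, with no overlap. The means were 4.51 ± 0.32 and 3.02 ± 0.52, a difference of -1.49 (SE 0.24), 2.82-fold lower (limma adjusted p = 0.00056). Opposed to both, and named here after their values were seen, Dkk2, Frzb and Sfrp4 had differences of 1.04, 1.09 and 1.01 but missed the threshold (limma adjusted p = 0.0234, 0.0473 and 0.0288). Dkk2 passed without PPE 5, with slide as a fixed or random block and with scan day as a block, and Sfrp4 with slide as a random block. In the red channel alone Sfrp4 also passed, at 1.99 (limma adjusted p = 2.2e-06). The green signal of its spot comes from the same reference RNA on every array. After loess, and not scaled between arrays, its mean log2 intensity was 8.47 on the sham and 9.94 on the PPE arrays. Frzb, a Wnt-binding relative of the Sfrp family, turned to -0.20 on Agilent's log ratios. Sfrp2 read -0.12, with a 95% interval from -0.63 to 0.38. Dkk1, the classical blocker of Lrp5 and Lrp6, read -0.72 (limma adjusted p = 0.0999), with the reference above background on 0 arrays. Dkk4 was above background on no array.

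**Figure D2:**
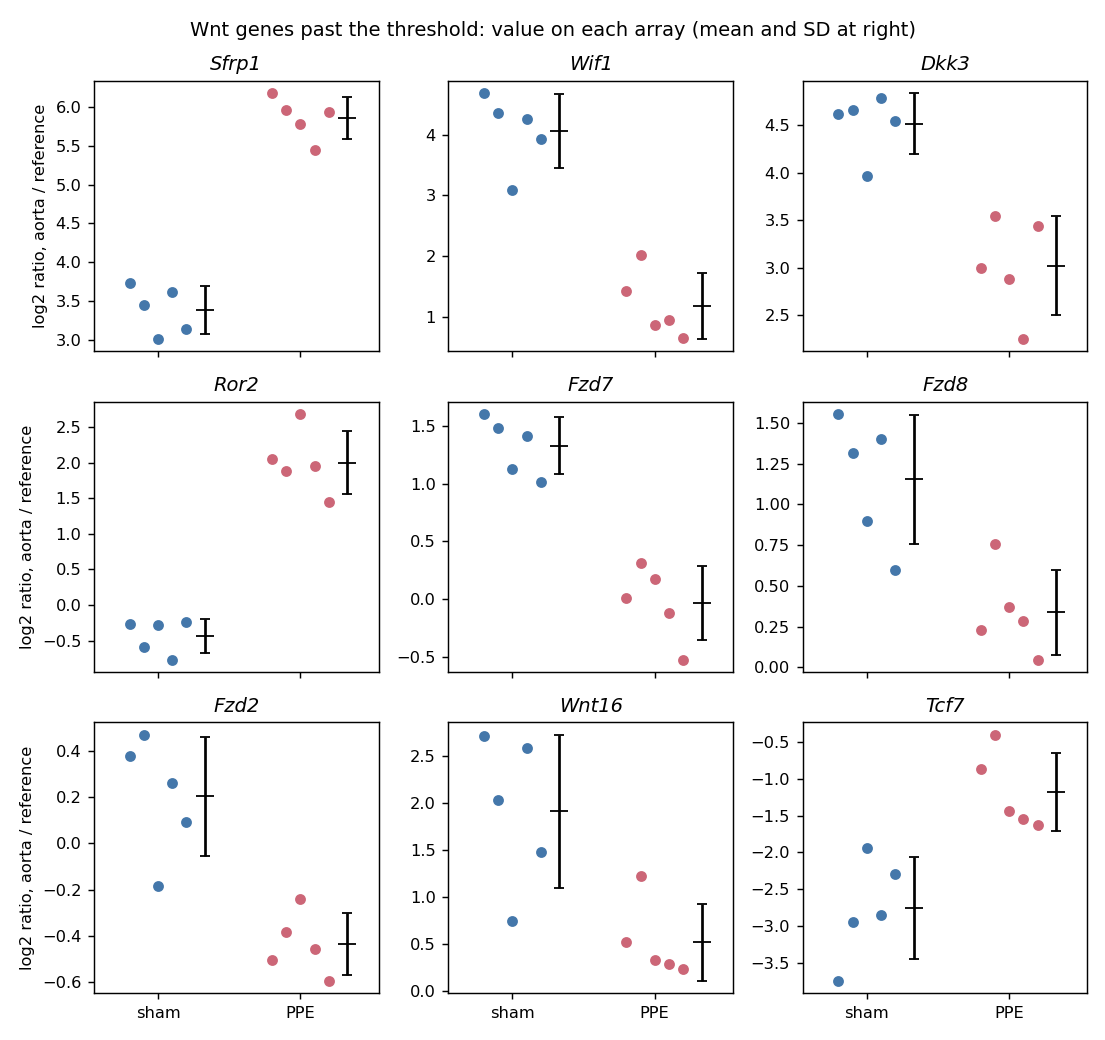
Log2 ratio of aorta over reference on each of the 5 sham (blue) and 5 PPE (red) arrays for the 9 genes past the threshold, with the group mean and SD in black at the right of each group. Each panel has its own vertical axis, which does not start at 0. Groups overlap in Fzd8 and Wnt16 and in no other panel.

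Among the Frizzled receptors, the membrane proteins that bind Wnts, 3 of 9 tested fell and 0 rose, with a median difference of -0.40. That was 33.3% called, beside 23.8% of all names. Fzd7 (probe at chr1:59543192-59543251, mm9, plus strand) read 1.60, 1.48, 1.12, 1.41 and 1.01 in sham and 0.01, 0.31, 0.18, -0.12 and -0.52 in PPE. The lowest sham array stood well above the highest PPE array. The means were 1.33 ± 0.25 and -0.03 ± 0.32, a difference of -1.36 (SE 0.17), 2.56-fold lower (limma adjusted p = 9.85e-05). Its second, dimmer probe, above background on 4 sham and 3 PPE arrays, gave -0.29 (limma adjusted p over probes = 0.0555). The mean of both probes gave -0.82.

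Fzd8 and Fzd2 fell by less. Fzd8 went from 1.15 ± 0.39 in sham to 0.34 ± 0.26 in PPE, a difference of -0.82 (SE 0.20, limma adjusted p = 0.00663), and sham 5 (0.60) lay below PPE 2 (0.76). Its call was lost in 7 of the 10 fits that left out 1 array, where the adjusted p reached 0.0202, and on Agilent's log ratios the difference was -1.41. Those 7 were the fits without sham 1, sham 2, sham 4, PPE 1, PPE 3, PPE 4 or PPE 5. Fzd2 (probe at chr11:102467613-102467672, mm9, plus strand) went from 0.20 ± 0.26 to -0.44 ± 0.13, a difference of -0.64 (SE 0.14, limma adjusted p = 0.00316). Its call was lost without sham 2, with the mean of its probes and with slide as a fixed block, and under median centring its difference was 0.045, which is -0.36 relative to the median of all names. Fzd4, an endothelial receptor for Norrin as well as Wnts, had a difference of -1.21 and missed the threshold (limma adjusted p = 0.012). It passed on Agilent's log ratios and in the red channel alone and without sham 3, PPE 2 or PPE 5, and it is named here after its values were seen. Fzd1, Fzd3, Fzd5, Fzd6 and Fzd9 lay between -0.40 and 0.47, and Fzd1 (0.47) passed without PPE 5.

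Ror2 was the only gene of the 5 co-receptors and other Wnt receptors that passed the threshold (20% called, beside 23.8% of all names). It is a receptor tyrosine kinase that binds Wnt5a and acts outside the beta-catenin route. Its probe (chr13:53204795-53204854, mm9, minus strand) read -0.27, -0.59, -0.28, -0.77 and -0.24 in sham and 2.04, 1.88, 2.68, 1.94 and 1.45 in PPE. All sham arrays were below the reference and all PPE arrays above it. The means were -0.43 ± 0.24 and 2.0 ± 0.44, a difference of 2.43 (SE 0.21), 5.38-fold (limma adjusted p = 5.67e-06). Lrp5 and Lrp6, the co-receptors of the beta-catenin route, read -0.18 (95% interval -0.55 to 0.19) and -0.31 (-0.95 to 0.33). Ror1, the closest relative of Ror2, read 0.45 (-0.27 to 1.17) with the reference above background on 0 arrays. Ryk read 0.17 (-0.18 to 0.52).

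Of the 12 Wnt ligands tested, 1 fell and 0 rose (8.33% called, beside 23.8% of all names), with a median difference of -0.12. Wnt16 (probe at chr6:22247804-22247863, mm9, plus strand) read 2.71, 2.03, 0.74, 2.59 and 1.47 in sham and 0.52, 1.22, 0.33, 0.28 and 0.23 in PPE. Sham 3 was below PPE 2, so the groups overlapped at that pair of arrays. The means were 1.91 ± 0.82 and 0.52 ± 0.41, a difference of -1.39 (SE 0.35), 2.62-fold lower (limma adjusted p = 0.00924). The second probe of Wnt16 gave -0.70 (limma adjusted p over probes = 0.153). The call by the brightest probe rested on most single arrays: 8 of the 10 fits that left out 1 array lost it. Only the fits without sham 3 or PPE 2 kept it, and the adjusted p reached 0.0268. It was also lost with the mean of its probes (0.0308) and with slide as a fixed block (0.0155), and on Agilent's log ratios the difference was -2.34.

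Wnt5a, which binds Ror2 and is the ligand most often named in vessel wall, was 1.08, 1.07, 0.78, 1.29 and 1.13 in sham and 0.06, 0.57, 1.01, 0.51 and 0.47 in PPE. Most PPE arrays were below all sham arrays, and PPE 3 lay among them. The difference of -0.54 (SE 0.16) missed the threshold (limma adjusted p = 0.0234), passed in the red channel alone and without PPE 3, and was 0.07 under median centring, which is -0.33 relative to the median of all names. The other 10 tested ligands lay between -0.36 (Wnt9a) and 0.35 (Wnt4 and Wnt6), and Wnt4 passed as higher on Agilent's log ratios and in the red channel alone. Wnt3, Wnt3a, Wnt7a, Wnt8a and Wnt8b were above background on no array. Wnt2 and the receptor Fzd10 were above background on 0 sham and 2 PPE arrays, and Wnt7b on 1 of each group. These 7 ligands and Fzd10 were too dim to test, which does not show that they were absent.

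Tcf7, the gene of TCF1, a beta-catenin partner in the nucleus that is abundant in T cells, was higher in PPE. Its brightest probe (chr11:52066114-52066173, mm9, minus strand) read -3.74, -2.94, -1.95, -2.84 and -2.29 in sham and -0.87, -0.40, -1.44, -1.54 and -1.63 in PPE. The groups did not overlap, although sham 3 came close to PPE 5. The means were -2.75 ± 0.69 and -1.18 ± 0.53, a difference of 1.57 (SE 0.33), 2.98-fold (limma adjusted p = 0.00329). The second probe gave 0.29 (limma adjusted p over probes = 0.21). The call by the brightest probe was lost without sham 2 or sham 4 (adjusted p of up to 0.0103). It was also lost with slide as a fixed block (0.0173) and with the replicate number as a block (0.0107). The difference was 2.86 on Agilent's log ratios and 0.93 for the mean of both probes. Lef1, the related factor, read -2.42, -1.83, -1.32, -1.93 and -1.61 in sham and -1.76, -0.38, -1.59, -1.71 and -0.98 in PPE. Its groups overlapped, and the difference of 0.54 missed the threshold (limma adjusted p = 0.168) and was 0.31 without PPE 2. Axin2, a feedback inhibitor widely used as a readout of the beta-catenin route, was above background on 1 sham and 1 PPE array by its brightest probe and on none by the other. It was not tested.

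The arrays came from 5 slides, of which slide 1 (sham 1, PPE 1 and PPE 2) and slide 2 (sham 2, sham 3, PPE 3 and PPE 4) held both groups. Within slides 1 and 2 the differences were 2.34 and 2.38 for Sfrp1, 2.23 and 2.75 for Ror2, and -2.96 and -2.81 for Wif1. Fzd7 gave -1.44 and -1.27, Dkk3 -1.35 and -1.75. Fzd8 gave -1.06 and -0.78, and Fzd2 -0.82 and -0.49. All 9 called genes kept their direction within both slides. Tcf7 and Wnt16 differed most between them: Tcf7 gave 3.1 on slide 1 and 0.95 on slide 2, and Wnt16 gave -1.84 and -1.08. Lef1 gave 1.35 and -0.08.

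**Figure D3:**
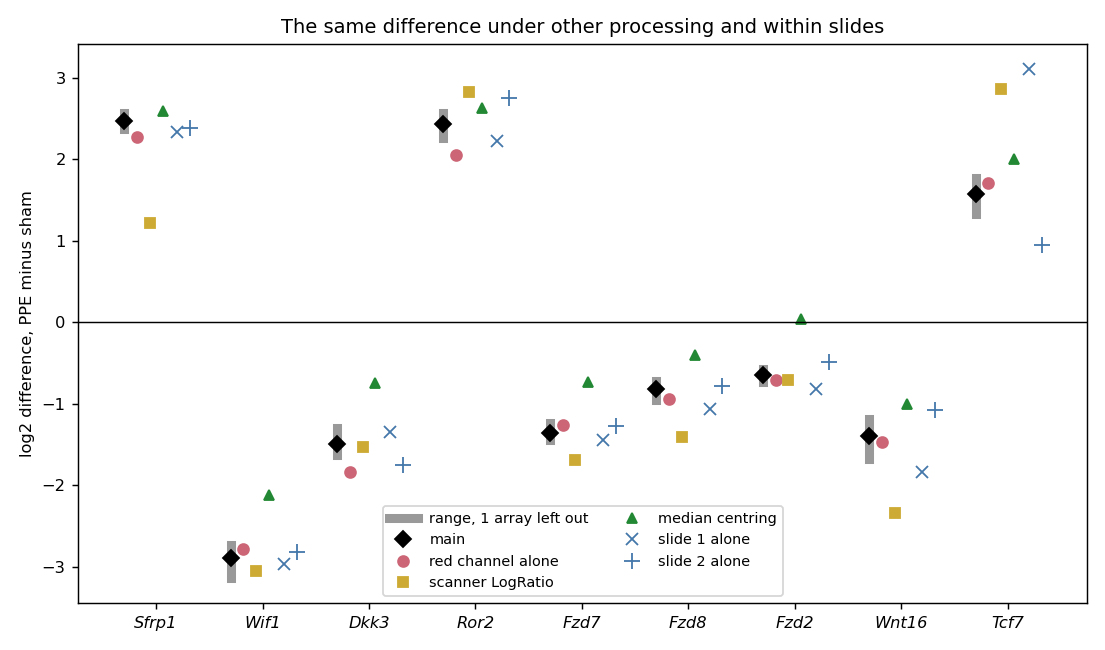
Log2 difference (PPE minus sham) of the 9 called genes by the values reported in the text (black), in the red channel alone, on Agilent's log ratios, under median centring, and within slides 1 and 2, with the range over the 10 fits that left out 1 array in grey. Fzd2 reaches 0.045 under median centring, and every other point keeps the sign of its gene.

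Levels of other cell types' markers moved with these genes. They are ratios, and for some markers the green signal differed between the groups. Its mean log2 intensity after loess was 10.29 on the sham and 7.49 on the PPE arrays for Myh11 (difference -0.74, not called). For Ucp1 it was 10.33 and 6.35. For the macrophage marker C1qa it was 7.64 and 10.29 (difference 0.43, not called). For such markers a small difference in ratio does not show that the aorta's own signal was unchanged. Of 9 smooth muscle markers, 7 fell, and their mean log2 ratio ran from 3.54 to 4.59 in sham and from 1.90 to 3.08 in PPE. Sham 3 was the lowest sham array and PPE 2 the highest PPE array on that list. Among the 6 Wnt genes that fell, sham 3 was the lowest sham array for 4 and PPE 2 the highest PPE array for 5. Of 8 adipocyte markers, 2 fell, Ucp1 (-2.94) and Cidea (-2.40), and the 6 not called lay between -0.90 and -0.43. The mean of that list ran from 4.76 to 5.83 in sham and from 3.62 to 5.14 in PPE, with the same arrays at those ends. These ends were not particular to the 2 lists: over 11 marker lists sham 3 was the lowest sham array in 5 and PPE 2 the highest PPE array in 8, endothelium and fibroblasts among both. In bulk tissue fewer cells of a type and less RNA per cell cannot be told apart, and the part of either list in the fall of Wif1, Dkk3, Fzd7, Fzd8, Fzd2 and Wnt16 was not tested.

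T cells express Tcf7 and Lef1, and their markers rose. Of 10, 7 rose, and their mean ran from -1.34 (sham 1) to -0.02 (sham 3) in sham and from 0.66 to 1.69 (PPE 2) in PPE. Tcf7 was likewise lowest on sham 1, highest among sham on sham 3, and highest among PPE on PPE 2. The lowest PPE array differed: PPE 5 for Tcf7 and PPE 4 for the list. Lef1 shared the other ends but was lowest among PPE on PPE 1 (-1.76), where the list stood at 1.62. These ends were not particular to T cells: sham 3 and PPE 2 were also the highest of their groups for B cell markers, which had 0 calls. Fibroblast markers, 4 of 9 of which rose, ran from 2.95 to 3.49 in sham and from 3.45 to 4.54 in PPE. The 4 were the collagen genes Col1a1, Col1a2 and Col3a1, and Pdgfra, whose call was lost in 9 of the 10 fits that left out 1 array. The 5 not called were Lum (1.22), Mfap5 (0.15), Dpt (-0.003), Dcn (-0.25) and Pi16 (-0.53). Macrophage markers rose in 5 of 8 (0.79 to 1.34 in sham, 2.71 to 3.89 in PPE) and neutrophil markers in 5 of 6 (0.51 to 0.72 in sham, 3.22 to 4.2 in PPE). The part of these lists in the rises of Sfrp1, Ror2 and Tcf7 was not tested. Endothelial, B cell and skeletal muscle markers had 0 calls among 8, 4 and 6, Schwann cell and nerve markers 1 of 7 and mesothelial markers 1 of 4. Every marker on these lists that the array carried was above background on at least 1 array.

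**Figure D4:**
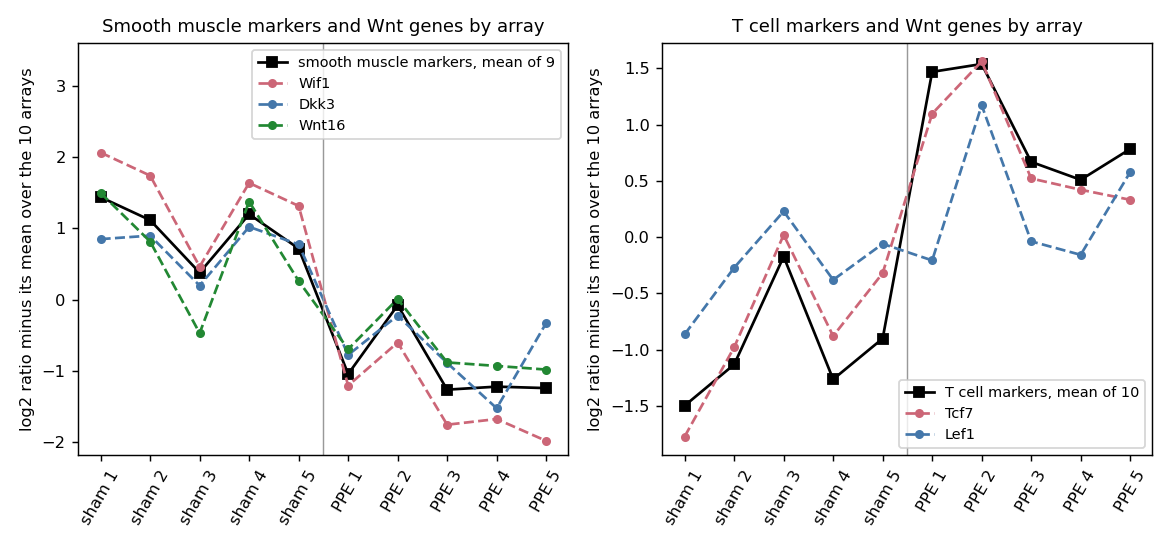
Mean log2 ratio of 9 smooth muscle markers beside Wif1, Dkk3 and Wnt16 (left), and of 10 T cell markers beside Tcf7 and Lef1 (right), on each array, each series minus its own mean over the 10 arrays. Sham 3 dips and PPE 2 peaks in the smooth muscle list, Wif1 and Wnt16; sham 1 is the lowest point of the T cell list, Tcf7 and Lef1.

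The rest of the pathway was counted from 7 lists of 96 genes, of which 87 were tested. In all 13 rose and 9 fell (25.3% called, beside 23.8% of all names), and the median difference was 0.04. Outside the cell, Cthrc1, a secreted glycoprotein that favours Wnt binding to Ror2, read -0.30 to -0.08 over the sham arrays and 2.94 to 4.22 over the PPE arrays. Its difference was 3.75 (SE 0.22, limma adjusted p = 6.46e-07). The gene was above background on 2 sham and all 5 PPE arrays, so its sham level lies near the background and the size of the difference is uncertain. Sost, which encodes the Lrp5 and Lrp6 antagonist sclerostin, read 2.98 to 3.93 in sham and 0.29 to 1.51 in PPE, a difference of -2.57 (SE 0.23, limma adjusted p = 8.22e-06). The green signal of the Sost spot, after loess and not scaled between arrays, had a mean log2 intensity of 8.29 on the sham and 6.22 on the PPE arrays. The difference was -4.41 in the red channel alone and -1.3 on Agilent's log ratios, so its direction held and its size depended on the channel and processing. Cthrc1 and Sost were the 2 calls among 10 further extracellular and membrane modulators (20% called, beside 23.8% of all names).

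Among 8 R-spondin genes, their receptors and the E3 ligases they act on, which set how much Frizzled stays at the cell surface, 2 rose and 1 fell. That was 37.5% called, beside 23.8% of all names. The ligand Rspo3 read 0.79 to 1.48 over the sham arrays and 2.15 to 3.12 over the PPE arrays, a difference of 1.62 (SE 0.20, limma adjusted p = 8.68e-05). The receptor Lgr5 rose by 2.11 (SE 0.37, limma adjusted p = 0.00096). It was above background on 2 sham and 5 PPE arrays, with the reference on 0 and its other probe on none, and the difference was 3.3 on Agilent's log ratios. The receptor Lgr6 fell, with a difference of -0.93 (SE 0.21, limma adjusted p = 0.0052), and lost its call without sham 1, sham 2, sham 4, PPE 1, PPE 2 or PPE 4 (adjusted p of up to 0.0162). On Agilent's log ratios it read -2.25. All 3 tested genes of Wnt secretion and modification (Porcn, Wls and Notum) lay between -0.04 and 0.05.

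Inside the cell, of 16 genes of the beta-catenin route in the cytoplasm 0 rose and 2 fell by their brightest probes (12.5% called, beside 23.8% of all names): Nkd1, a feedback inhibitor that binds Dishevelled, at -1.41 (other probe -0.78), and Btrc, a subunit of the ligase that marks beta-catenin for destruction, at -0.99 (other probe 0.07, and call lost for their mean, -0.46). These counts depend on the probe: by another probe the inhibitor Nkd2 read 1.64 and Gsk3b, the kinase that marks beta-catenin, -0.67 (limma adjusted p over probes = 0.000618 and 0.00138), while their brightest probes, at 0.31 and -0.32, were not called. Of 12 nuclear partners 1 fell (8.33% called, beside 23.8% of all names), the repressor Tcf7l1 at -0.64. Its call was lost in 8 of the 10 fits that left out 1 array (all but those without sham 3 or sham 5, limma adjusted p of up to 0.0231). Of 22 genes of the polarity and calcium routes 3 rose and 3 fell (27.3% called, beside 23.8% of all names). Nfatc2 (1.70), Nfatc4 (0.64) and Celsr1 (0.62) rose, while the phospholipase Plcb4 (-2.31) and the calcium-dependent kinases Camk2g (-1.30) and Camk2b (-1.0) fell. The call of Nfatc4 was lost without sham 2 or PPE 3 and that of Celsr1 without sham 2 or sham 4. By another probe Nfatc1 and Rac1 read 1.0 and 0.89 (limma adjusted p over probes = 0.000267 and 0.000718), with brightest probes at 0.57 and 0.48 that were not called.

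Genes that have been reported as beta-catenin targets in other systems had 7 calls higher and 1 lower among 16, with a median of 0.38. That was 50% called, beside 23.8% of all names. The list was chosen with earlier results of these data known, so its share was open to selection and is no test of the list. Sp5 and Mmp7, also on it, were too dim to test. Birc5, an inhibitor of cell death that peaks in dividing cells, had a difference of 2.90 (other probes 1.32 and 0.82, mean of all 1.68), the hyaluronan receptor Cd44 of 2.46, and the matricellular gene Wisp1 of 2.43. Fgf18 (1.65), Myc (1.10), Ccnd1 (0.94) and Wisp2 (0.69), named so that every call of the list is given, were also higher, and Id2 was lower at -0.81. The call of Wisp2 was lost in 8 of the 10 fits that left out 1 array (all but those without sham 4 or PPE 5, adjusted p of up to 0.0244). By another probe Vegfa read -1.10 (limma adjusted p over probes = 0.00329), with its brightest at -0.48 not called. Most of these genes answer to other signals as well, and Cd44 is abundant in the leukocytes whose markers rose. Their part in these values was not tested.

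**Figure D5:**
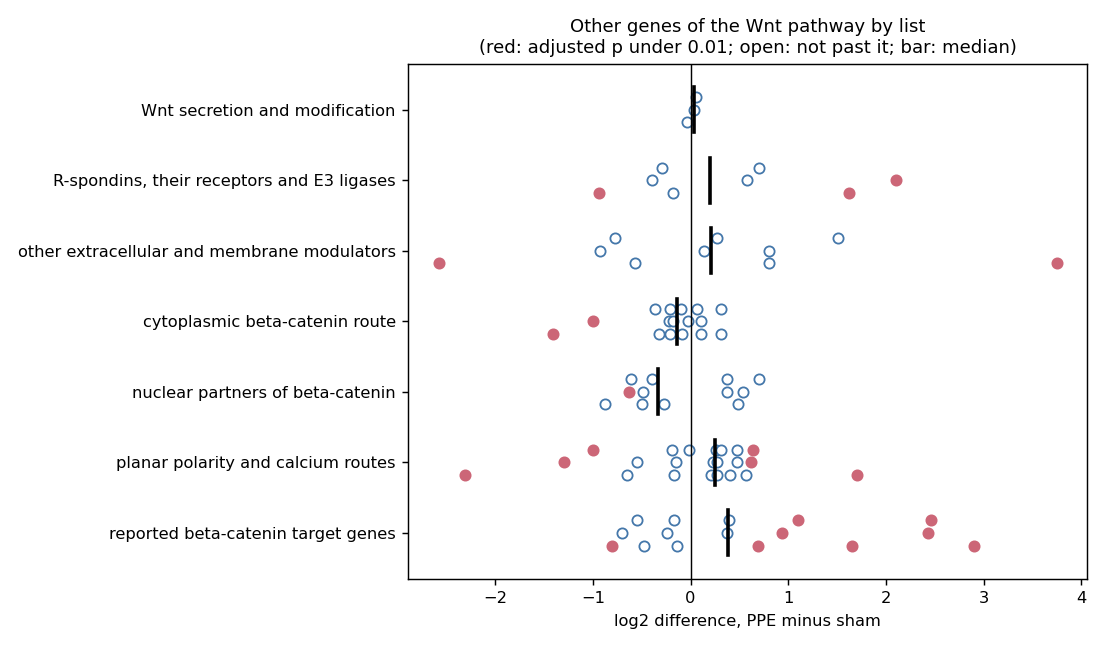
Log2 difference (PPE minus sham) of 87 further genes of the Wnt pathway, 1 point a gene, by list. Red points passed an adjusted p under 0.01 (13 to the right of 0, 9 to the left), open points did not, and the black bar is the list's median. Cthrc1 at 3.75 and Sost at -2.57 are the farthest points.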

How the data were processed

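Infrarenal aorta RNA (500 ng) of 5 sham and 5 PPE mice was measured on 2-colour Agilent arrays of 62976 spots, always in Cy5 against the Cy3 reference, with no dye swap, so a dye effect specific to a probe is common to both groups. The authors scanned them with Agilent Feature Extraction 10.7.3.1. The deposited scanner files give each spot's mean and background intensity in both channels and a log10 ratio of processed signals. The deposited series matrix holds the same ratios as log2 values (equal on 100% of spots within 1e-04, column medians -0.16 to 0.12). The study's methods state that arrays with poor hybridization were left out and that outliers were dropped after clustering and principal components, a selection that can narrow the spread within groups.

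From the intensities, normexp (offset 50) and loess were applied, control spots and outlier spots (176 to 331 per array) left out, and probes averaged over spots. For a gene name the brightest tested probe was used. Arrays were compared in limma 3.58.1 (R 4.3.3), two-sided and unpaired, with Benjamini-Hochberg adjustment over 22520 names at 0.01, the study's false discovery rate. Its own test (SAM) was not run. Samples were grouped by their labels, and separate animals were the replicates. The fit was tested on simulated data drawn without a slide effect, so that test does not cover slides. Slide was not in the main fit. Deviations from the group means had a median correlation of 0.183 between arrays on a shared slide and -0.257 between others. Array values were given for genes called with a difference of at least 1, and up to 3 called genes per pathway list and direction were named, with exceptions stated. The genes and lists were chosen with earlier results of these data known, as were the motifs. Probe positions are the arrays' (mm9). Alternatives covered signal, background, normalization, dim-probe filter, probe choice, slide, scan day, replicate number and left-out arrays.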

Additional observations from a re-analysis of the deposited data

Results flagged for a closer look

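Of 30 groups of 5 arrays checked, 1 held an array that stood apart from the rest. In the PPE group Wnt16 read 1.22 on PPE 2 and at most 0.52 on the others, a gap of 0.712 of the group's whole range against a critical value of 0.71 for 5 arrays. Chance gives such a gap in about 5% of groups. PPE 2 had the highest mean of the PPE arrays in 8 of 11 marker lists (smooth muscle, endothelium, fibroblasts, T cells, B cells, adipocytes, skeletal muscle, and Schwann cells and nerve).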

How the results depend on the processing

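Of the Wnt genes, 3 passed higher and 6 lower. The higher count was 1 under median centring, 5 in the red channel alone and 5 with slide as a random block, and the lower count was 0 under median centring. Leaving out 1 array gave 2 to 5 higher (5 without PPE 5, which added Dkk2 and Fzd1) and 3 to 7 lower (3 without sham 2, which lost Fzd2, Fzd8 and Wnt16). Of the pathway lists, 13 passed higher and 9 lower. The higher count was 3 under median centring. The lower count was 16 on Agilent's log ratios and on the series matrix values, 0 under median centring, 14 in the red channel alone and 14 with slide as a random block. Leaving out 1 array gave 10 to 18 higher and 7 to 12 lower. The differences of Fzd2 (0.045) and Wnt5a (0.073) turned sign under median centring, and that of Frzb (-0.203) on Agilent's log ratios and in the series matrix. The cause was not tested. Over all names median centring called 408 higher and 8 lower, against 3116 and 2243.

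Over the 33 genes and 13 other settings, 367 differences kept direction and call, 37 lost the call, 14 gained it and 4 turned. Over the 10 left-out arrays these were 289, 36, 5 and 0. Aquantile scaling leaves ratios as they are. With the replicate number as a block, 4 Wnt genes passed higher and 6 lower: Tcf7 was lost, Dkk2 and Frzb gained. Whether the numbers pair animals is not known. Correlations of same-numbered arrays ran from -0.299 to 0.516, and not every sham array was closest to its own number. Without sham 5 and PPE 5, the arrays with the fewest bright spots, chosen after seeing the data, Wnt16 was lost and Dkk2 gained. Dim signal limits 10 Wnt genes that were not tested, and for 5 tested ones the reference was above background on 5 arrays or fewer.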
